A study of Mus musculus with 6 samples.

Results

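The genes described here are those of collagen VI (Col6a1 to Col6a6) and of the fibril-associated collagens XII, XIV and XVI (Col12a1, Col14a1 and Col16a1). The 9 genes were selected by their symbols from the 55335 genes of the count table. The list was drawn up with values of these libraries in view, and Col6a5 was included because it had no counts in young aorta, so its difference between ages is given as a description without a test. RNA was sequenced from the aorta of 3 young and 3 aged wild-type mice, with 1 library per mouse, and by the study's methods a stretch of vessel was taken after the surrounding fat had been dissected under a microscope. The labels give the strain as c57b6l and the genotype as WT for both groups, and the study's methods describe the mice as male C57BL/6. The young mice were 6 weeks old and the aged mice 6 months old, and neither group carried a transgene or had a treatment named in the labels.

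Collagen VI is built as a heterotrimer of an alpha1, an alpha2 and an alpha3-like chain, which assembles inside the cell into dimers and tetramers and forms beaded microfilaments outside it. The chains alpha4, alpha5 and alpha6, encoded by Col6a4, Col6a5 and Col6a6, can take the place of the alpha3 chain. In the vessel wall these microfilaments lie between cells, basement membranes and the fibrils of collagens I and III. Collagens XII, XIV and XVI belong to the fibril-associated collagens with interrupted triple helices, which sit on or near the surface of banded fibrils and influence their spacing and their links to other matrix molecules. Fibroblasts are a main source of collagens VI and XIV in connective tissue.

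The 6 collagen VI genes lie at 3 places in the mouse genome (GRCm38, GENCODE M21). Col6a1 (ENSMUSG00000001119) lies on chromosome 10 from 76708792 to 76726168, and Col6a2 (ENSMUSG00000020241) lies 85.2 kb away on the same minus strand from 76595762 to 76623630. Col6a3 (ENSMUSG00000048126) stands alone on chromosome 1 from 90765923 to 90843971. The genes of the alpha3-like chains form a row on the minus strand of chromosome 9. Col6a6 (ENSMUSG00000043719) spans 105687809 to 105828160, Col6a5 (ENSMUSG00000091345) begins 27.9 kb further on and spans 105856078 to 105960643, and Col6a4 (ENSMUSG00000032572) begins another 28.8 kb on and spans 105989454 to 106096783. Exons of Col6a4 overlap those of Gm47575 and Gm36993, and exons of Col6a6 overlap those of Gm38314, so that reads could be shared there because the strand setting of the counting is not given in the sources used here. The fibril-associated collagens lie apart from each other, Col12a1 (ENSMUSG00000032332) on chromosome 9 from 79598991 to 79718831, Col14a1 (ENSMUSG00000022371) on chromosome 15 from 55307750 to 55520803, and Col16a1 (ENSMUSG00000040690) on chromosome 4 from 130047840 to 130099283.

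The bases directly before the start of the 3 genes of the classical heterotrimer are printed because their transcripts were the most abundant of collagen VI and their levels are set side by side in the sections that follow. The sequences are those of RefSeq for GRCm38.p6, read 5′ to 3′ on the strand of the gene and ending at the base before the first annotated transcript, and capitals mark a GC box on the opposite strand.
Col6a1, chr10:76726169-76726294, minus strand: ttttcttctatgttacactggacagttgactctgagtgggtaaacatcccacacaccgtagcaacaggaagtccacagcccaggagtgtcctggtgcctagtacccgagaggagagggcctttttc
Col6a2, chr10:76623631-76623880, minus strand: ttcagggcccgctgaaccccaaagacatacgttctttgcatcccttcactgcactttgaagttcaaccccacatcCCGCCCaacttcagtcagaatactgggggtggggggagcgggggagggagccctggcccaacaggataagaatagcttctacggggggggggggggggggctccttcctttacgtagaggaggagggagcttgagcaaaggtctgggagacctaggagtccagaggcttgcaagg
Col6a3, chr1:90843972-90844221, minus strand: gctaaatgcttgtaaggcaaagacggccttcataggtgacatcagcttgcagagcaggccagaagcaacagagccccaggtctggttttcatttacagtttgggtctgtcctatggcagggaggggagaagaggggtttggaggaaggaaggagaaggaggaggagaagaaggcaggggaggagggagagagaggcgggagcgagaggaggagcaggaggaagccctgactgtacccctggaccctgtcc
The 3 windows held 51.6%, 59.2% and 57.2% of G and C for Col6a1, Col6a2 and Col6a3. Both strands were searched for 5 motifs known from promoters. The TATA box was taken as the letters TATAAA. The GC box, which SP1 and related factors can bind, was taken as GGGCGG. An E box, the site type of many basic helix-loop-helix factors, was taken as CANNTG. The CArG box of smooth muscle genes and the CCAAT box were searched by their usual letters, and no matches overlapped. The window of Col6a2 held 1 GC box and that of Col6a1 held 1 E box, and no other match was found in the 3 windows. The Col6a1 window was cut at the GENCODE gene start, and the bases from there to its RefSeq start at 76726044 were not searched. Of 32851 mouse promoters, 32.7% had a GC box in their 250 bases upstream of the RefSeq start. In the 126 bases of that window farthest from the start, the part printed for Col6a1, 43.4% had an E box. In 250 bases, 12.4% of all promoters held a TATA box, 33.8% a CCAAT box and 1.5% a CArG box. In the 126 bases the shares were 6.3%, 16.9% and 0.6%. Promoter sequences were matched for 7 of the 9 genes.

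The libraries held between 31049632 and 45832185 counts on genes. Values per library are given as CPM, counts divided by the TMM-adjusted size of each library, which makes libraries comparable for 1 gene. Levels of different genes are compared only as FPKM, which also divides by gene length. All 8 smooth muscle markers were detected in every library, with a summed level of 28711 to 41091 CPM. Young replicate 1 went against the male sex given in the study's methods, because it had 306 CPM of Xist, expressed from the inactive X of females, and 1.09 CPM of the Y-linked Ddx3y. The other 5 libraries had 0.204 to 0.636 CPM of Xist and 44.8 to 65.6 CPM of Ddx3y. Aged replicate 2 stood apart by its brown adipocyte markers, which summed to 1873 CPM against 74.6 to 569 in the other libraries. Genes of the mitochondrial genome took 14.9% to 21.2% of the counts in young and 23.1% to 30.4% in aged aorta. The changes of the collagen genes are therefore also given without young replicate 1 and without aged replicate 2.

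Col6a1 and Col6a2 were among the most abundant transcripts of the aorta, and the 3 classical chains of collagen VI stood in the same order at both ages. Col6a1, which encodes the alpha1 chain, had 160.2 ± 30.3 FPKM (SD, n = 3) in young and 100.1 ± 19.5 FPKM (SD, n = 3) in aged aorta. It exceeded 98.9% of the tested genes in young and 98.2% in aged aorta. For Col6a2 these shares were 97.6% and 96.6%, and for Col6a3 they were 94.4% and 88.5%. Col6a2, the alpha2 chain, followed with 80.8 ± 18.3 FPKM (SD, n = 3) and 56.7 ± 18.9 FPKM (SD, n = 3), and the ranges of Col6a1 and Col6a2 did not overlap at either age. In young aorta Col6a3 came next with 35.7 ± 15.3 FPKM (SD, n = 3), but its range of 20 to 50.5 FPKM overlapped that of Col14a1, which had 27.4 ± 4.42 FPKM (SD, n = 3). In aged aorta Col14a1 stood above Col6a3, with 35.2 ± 10.5 FPKM (SD, n = 3) against 16.3 ± 4.49 FPKM (SD, n = 3), and their ranges did not overlap. Lower in the order at both ages were Col16a1, then Col6a6, then Col12a1, with no overlap between neighbours. Col12a1 had a mean of 0.598 FPKM in young and 0.618 FPKM in aged aorta, above 21.3% and 23.2% of the tested genes. Col6a4 and Col6a5 stood at the end with means under 0.1 FPKM.

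Between the ages, edgeR's quasi-likelihood test called 0 of 16612 genes, which is 0%, at a Benjamini-Hochberg adjusted p below 0.05, so no collagen VI or fibril-associated collagen gene was called either. Of all tested genes, 1723 or 10.4% had an unadjusted p below 0.05. Of the 7 collagen genes other than Col6a5 that passed the filter on low counts, 1 did, namely Col6a3. DESeq2 called 338 of 14955 genes, or 2.26%, and none of these 7 collagen genes. Without aged replicate 2, edgeR called 110 of 17147 genes, or 0.642%, again with none of the 7. The median log2 fold change of the 7 genes was 0.06, with 4 positive and 3 negative values, against a median of 0.02 over all genes tested. Its sign was not stable, since it was -0.41 without aged replicate 1, between -0.07 and -0.02 without any 1 of the young libraries, and -0.12 or -0.18 when limma was run on FPKM with pseudocounts of 1 and 0.1. Col6a5 was left out of this median, because its lack of young counts is what placed it on the list. Col6a4 did not pass the filter, and Col6a5 passed only through its aged libraries. The p values weigh the difference between the ages against the spread between the mice within an age. In whole tissue, fewer cells of a type and less RNA per cell cannot be told apart.

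**Figure D1:**
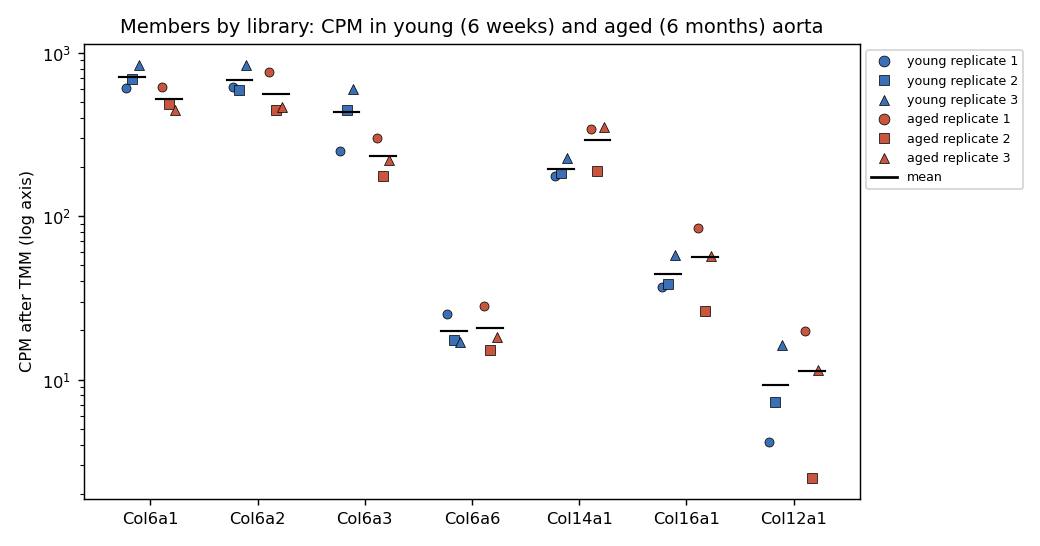
CPM (log axis) of the 7 collagen genes with counts in every library, by gene, for 3 young (blue) and 3 aged (red) libraries, with a bar at each mean. The young and aged points of each gene overlap, and Col6a3 and Col12a1 spread most widely.

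The 3 classical collagen VI chains had lower mean levels in aged aorta, by different amounts, and none passed the test. Col6a1 was at 609, 688 and 841 CPM in young replicates 1, 2 and 3, and at 619, 489 and 448 CPM in aged replicates 1, 2 and 3. The groups met only through young replicate 1 and aged replicate 1, and the other young libraries stood above all aged ones. Its fitted log2 fold change was -0.46 (SE 0.20), a fold of 0.728, with an adjusted p of 0.492 by edgeR. It was -0.55 without young replicate 1 and -0.42 without aged replicate 2. As FPKM the ages did not overlap for Col6a1, at 133 to 193 in young and 83 to 121 in aged aorta. FPKM were lower without overlap in aged aorta for 20.9% of tested genes and higher for 3.24%, while for CPM the shares were 8.78% lower and 7.74% higher. The share of mitochondrial counts was higher in every aged than in every young library, and its part in the FPKM gap was not tested.

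Col6a2, whose product joins the alpha1 chain in every known form of the trimer, was at 615, 593 and 846 CPM in young and at 764, 447 and 467 CPM in aged replicates 1 to 3. Aged replicate 1 lay within the young range and the other aged libraries lay under it. The log2 fold change was -0.29 (SE 0.26), with an adjusted p of 0.711 by edgeR, and it was -0.36 without young replicate 1 and -0.15 without aged replicate 2. Over all fits with 1 library left out it ran from -0.58 without aged replicate 1 to -0.10 without young replicate 3.

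Col6a3 encodes the long alpha3 chain, whose end is cut off as the peptide endotrophin. It had 252, 445 and 604 CPM in young and 299, 177 and 221 CPM in aged replicates 1 to 3. Young replicate 1 lay within the aged range, and young replicates 2 and 3 lay above every aged library. Its fitted log2 fold change of -0.90 (SE 0.34), a fold of 0.536, was the farthest from 0 of the 7 genes, with an adjusted p of 0.446 by edgeR. It reached -1.17 without young replicate 1, the library with high Xist, and was -0.74 without aged replicate 2. Without young replicate 3 it was -0.58.

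The alpha3-like chains were much rarer than alpha3 itself. Col6a6 was at 25.1, 17.4 and 16.9 CPM in young and 28.3, 15.1 and 18.3 CPM in aged replicates 1 to 3. Replicate 1 was the highest of either group, and the ages overlapped over nearly their whole range. The log2 fold change was 0.06 (SE 0.28), with an adjusted p of 0.956 by edgeR, and it was 0.27 without young replicate 1 and 0.24 without aged replicate 2. The value turned to -0.25 without aged replicate 1, to -0.02 without young replicate 2 and to -0.04 without young replicate 3.

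Col6a5 had 0 counts in each young library and 29, 20 and 12 counts in aged replicates 1, 2 and 3. Exact Poisson intervals at 95% were 19.4 to 41.6, 12.2 to 30.9 and 6.2 to 21 counts for the aged libraries, and they cover counting error only. In CPM the aged libraries had 0.873, 0.53 and 0.425, all above the limit of 0.0619 to 0.0874 CPM that 3 counts give in single young libraries. Summed over the group, 61 aged counts made 0.615 CPM. This was 24.1 times the 0.0255 CPM that 3 counts over all young libraries would give (18.4 to 30.9 from the counting interval of the aged sum). The exact Poisson upper limit for the young sum of 0 counts was 3.69, above these 3 counts, so 24.1 is not a strict minimum. Leaving out 1 library at a time moved the ratio between 14.2 without young replicate 1 and 27.1 without aged replicate 3. This gap is what placed Col6a5 on the list, and even in aged aorta its level was 0.0543 ± 0.0217 FPKM (SD, n = 3). Its neighbour Col6a4 had 6 counts in young replicate 2, with an exact Poisson interval of 2.2 to 13.1, and 0 in every other library. At this depth no difference in Col6a4 between the ages was detectable.

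Col6a4, Col6a5 and Col6a6 together made up 11.5%, 4.9% and 3.52% of the summed FPKM of Col6a3 to Col6a6 in young replicates 1, 2 and 3. In aged replicates 1, 2 and 3 the share was 11.3%, 10.3% and 9.93%. The aged libraries were close to each other, and young replicate 1 lay above them while the other young libraries lay under them, so the groups overlapped. Nearly all of the share came from Col6a6.

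Among the fibril-associated collagens, Col14a1 was the most abundant and had a higher mean in aged aorta, without passing the test. Its product binds decorin on collagen I fibrils. Col14a1 was at 175, 185 and 226 CPM in young and at 343, 188 and 352 CPM in aged replicates 1 to 3. Aged replicate 2 lay within the young range, and aged replicates 1 and 3 lay above every young library. The log2 fold change was 0.59 (SE 0.26), a fold of 1.51, with an adjusted p of 0.5 by edgeR. Without aged replicate 2, the library with high brown adipocyte markers, it was 0.83 with an adjusted p of 0.117 by edgeR. This was the lowest adjusted p of the 7 tested genes other than Col6a5 under any setting tried. Without young replicate 1 the log2 fold change was 0.52. With limma on FPKM it was smaller, at 0.32 with either pseudocount, where the median of all genes was -0.12 or -0.19.

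Col16a1, a minor collagen that joins fibrillin microfibrils or banded fibrils depending on the tissue, was at 36.8, 38.7 and 57.7 CPM in young and 85, 26.4 and 57.1 CPM in aged replicates 1 to 3. Both the highest and the lowest value belonged to aged libraries. The log2 fold change of 0.34 (SE 0.41) had an adjusted p of 0.783 by edgeR, was 0.23 without young replicate 1 and 0.68 without aged replicate 2, and turned to -0.09 without aged replicate 1.

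Col12a1, whose product bridges fibrils in tissues under load, had 4.13, 7.27 and 16.3 CPM in young and 19.9, 2.49 and 11.4 CPM in aged replicates 1 to 3. Its spread within an age was far wider than the gap between the means of 9.25 and 11.3 CPM. The log2 fold change was 0.28 (SE 0.75), with an adjusted p of 0.909 by edgeR, and it ran from -0.41 without aged replicate 1 to 0.98 without young replicate 3. It was -0.07 without young replicate 1 and 0.76 without aged replicate 2.

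**Figure D2:**
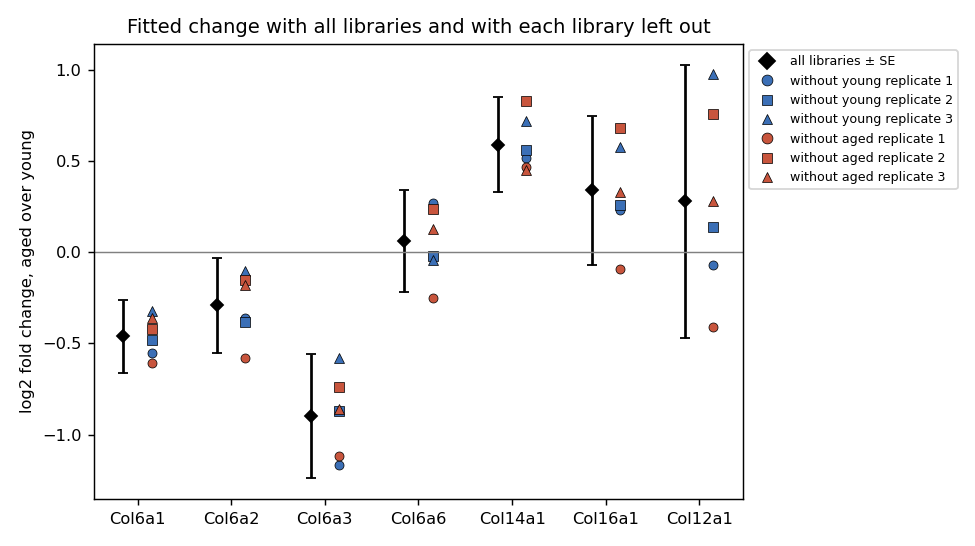
Fitted log2 fold change of aged over young aorta with all libraries (black diamonds, bars show the SE) and with each library left out (coloured points) for the 7 collagen genes. Col6a1, Col6a2 and Col6a3 stay under 0 and Col14a1 stays above 0 in every fit, while Col6a6, Col16a1 and Col12a1 have points on both sides.

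Col6a1 and Col6a2, the neighbours on chromosome 10, had the closest patterns over the 6 libraries. The root mean square difference of their centred log2 CPM was 0.163, the smallest of the pairs among the 7 genes. Col14a1 and Col16a1 followed with 0.312, then Col6a1 and Col6a3 with 0.343, while Col6a3 and Col14a1 differed by 0.768 and Col12a1 differed from every other gene by at least 0.563. Among 15935 genes with counts in every library, the 5 outside the list nearest to the mean pattern of Col6a1, Col6a2 and Col6a3 were Tenm3 at 0.0785, Pop1 at 0.0898, Utp23 at 0.092, Slc38a2 at 0.0929 and Col5a1, a chain of collagen V, at 0.097. All these values rest on the same 6 libraries and describe likeness over them only.

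Ratios within a library do not depend on its scaling, and the pairs given here were chosen after the values were seen, so they carry no test. Col6a2 over Col6a1 in FPKM was 0.53, 0.452 and 0.528 in young and 0.648, 0.48 and 0.548 in aged replicates 1 to 3, and the ages overlapped. Col6a3 over Col6a1 was 0.15, 0.236 and 0.262 in young and 0.176, 0.132 and 0.18 in aged replicates 1 to 3, again with overlap. Col14a1 over Col6a1 was 0.179, 0.168 and 0.168 in young, and 0.346, 0.24 and 0.49 in aged replicates 1 to 3. Every aged library lay above the narrow young range, including aged replicate 2, in which Col14a1 itself was at a young level. Col14a1 over Col6a3 also did not overlap, with 0.64 to 1.19 in young and 1.82 to 2.72 in aged aorta. These pairs set a gene with a higher aged mean over genes with lower aged means. The share of all gene pairs whose ratios do not overlap was not counted. Within the fibril-associated group, Col16a1 over Col14a1 ran from 0.218 to 0.267 in young and from 0.146 to 0.259 in aged aorta, with overlap.

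**Figure D3:**
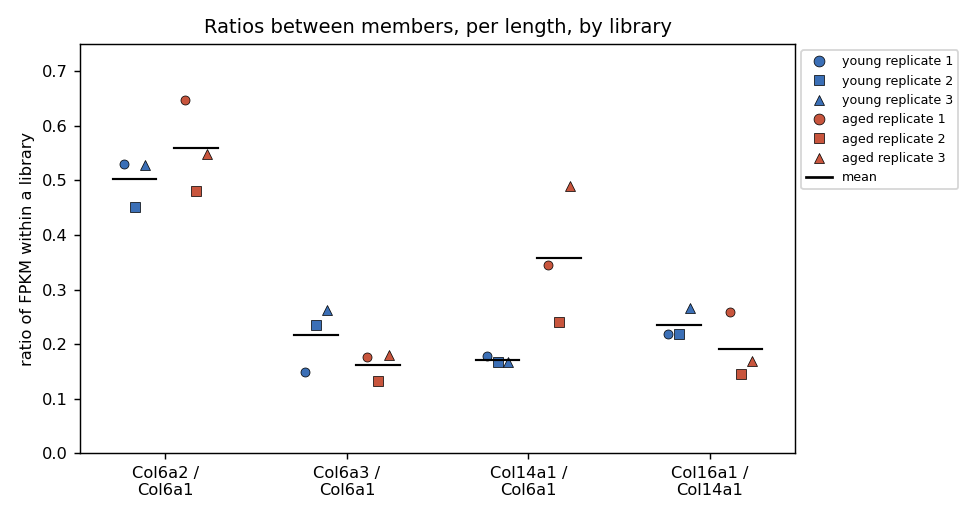
Ratio of FPKM between pairs of collagen genes within each library (vertical axis, no unit), for young (blue) and aged (red) libraries with bars at the means. For Col14a1 over Col6a1 the aged libraries at 0.24 to 0.49 lie above the young ones at 0.168 to 0.179, and the other 3 ratios overlap between ages.

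The levels of cell type markers were read beside those of the collagens. The 8 fibroblast markers, among them Dcn, Pdgfra and Dpt, summed to 3114, 2551 and 2879 CPM in young and to 8795, 2388 and 7395 CPM in aged replicates 1 to 3. Of these sums, Gsn alone gave 2002, 1376 and 1380 CPM in young and 3374, 1289 and 3111 CPM in aged replicates 1 to 3. Its log2 fold change of 0.71 was the smallest of the list. Aged replicates 1 and 3 stood high and aged replicate 2 did not, as for Col14a1. The list had a median log2 fold change of 1.48, or 1.32 without young replicate 1 and 1.90 without aged replicate 2, and all 8 values were positive, whereas those of Col6a1, Col6a2 and Col6a3 were negative. For the fibroblast markers, edgeR called 0 with all libraries and 6 without aged replicate 2, and DESeq2 called 3. Over all genes, the same fits called 0%, 0.642% and 2.26%. Macrophage markers summed to 97.7 to 131 CPM in young and 135 to 439.7 CPM in aged aorta, and the median change of the list was 1.39 on the log2 scale, with 0 called by edgeR, 3 without aged replicate 2, and 4 by DESeq2. All 8 smooth muscle markers had negative changes, with a median of -0.19 and none called in these fits. The 7 endothelial markers summed to 353 to 499 CPM in 5 libraries and to 1709.8 CPM in aged replicate 3, with a median of 0.94. No marker of these 4 lists was at 0 in any library. The part of these cell types in the collagen differences was not tested.

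The remaining lists were read in the same way. The 8 adipocyte markers summed to 1010.4 to 2159 CPM in young and 1041 to 2890.2 CPM in aged aorta, with the highest sum in aged replicate 2. Fabp4, at 334 to 1518 CPM, and Plin4, at 309 to 901 CPM, were the largest parts of the sum in every library. Adipoq ran from 13.5 to 94.3 CPM and Plin1 from 7.31 to 129 CPM over the 6 libraries. Schwann cell markers summed to 14.5 to 35.8 CPM over the 6 libraries, mesothelial markers to 1.14 to 66.1 CPM and skeletal muscle markers to 7.62 to 22.7 CPM. In at least 1 library, 1 mesothelial, 1 cardiac and 2 skeletal muscle markers were at 0. Cardiac muscle markers summed to 308 CPM in young replicate 1 and to 80.2 to 91.9 CPM in the others. Relative to Dcn, the most abundant small proteoglycan of the fibroblast list, Col6a1 in FPKM was 1.34 to 1.68 in young and 0.32, 1.19 and 0.297 in aged replicates 1 to 3. Col6a3 over Dcn was likewise lower in aged libraries, at 0.245 to 0.396 in young against 0.0535 to 0.158 in aged aorta. Col14a1 over Dcn overlapped, at 0.225 to 0.291 in young and 0.11 to 0.287 in aged aorta. The ratios to Dcn carry no test either, and the share of all gene pairs that do not overlap was not counted.

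**Figure D4:**
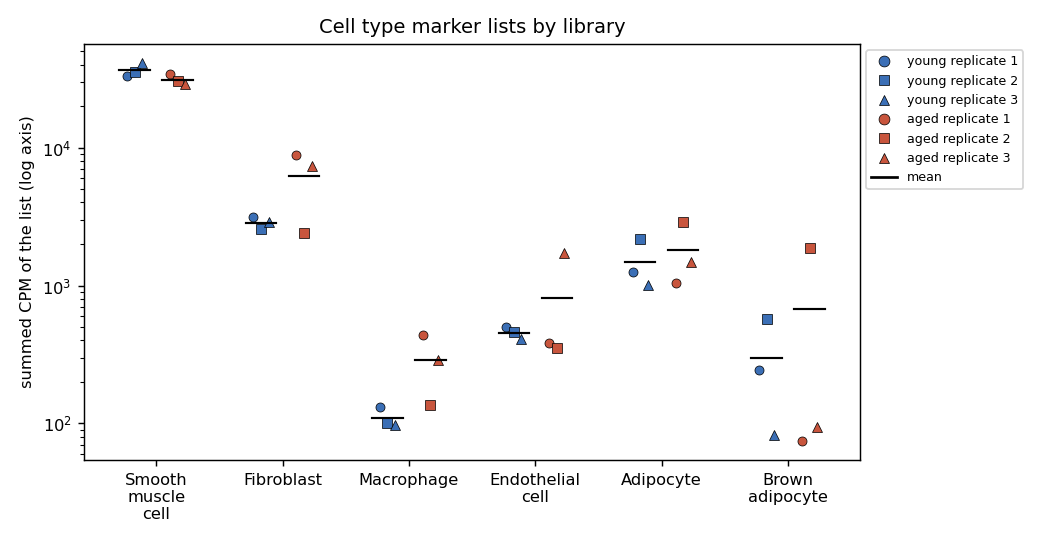
Summed CPM (log axis) of the smooth muscle cell, fibroblast, macrophage, endothelial cell, adipocyte and brown adipocyte marker lists in 3 young (blue) and 3 aged (red) libraries, with bars at the means. Aged replicates 1 and 3 are high in the fibroblast list at 8795 and 7395 CPM, and aged replicate 2 is high in the brown adipocyte list at 1873 CPM.

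Genes that work with these collagens were read in 4 lists written from general knowledge, and edgeR called none of their genes with all libraries. Over all tested genes, 10.4% had an unadjusted p below 0.05 by edgeR, 923 higher and 800 lower, and the median log2 fold change was 0.02. Of the other fibril-associated collagens, 5 were tested, with a median log2 fold change of -0.42 and 2 lower at an unadjusted p below 0.05. All were rare, with a summed level of 8.16 to 14.4 CPM over the 6 libraries. Col22a1, a collagen of tissue junctions, was at 2.29, 2.07 and 1.05 CPM in young and 0.692, 0.477 and 0.708 CPM in aged replicates 1 to 3. The ages did not overlap, and 8.78% of all tested genes were likewise lower in aged aorta without overlap by CPM. Col22a1 had a log2 fold change of -1.53 (SE 0.48, adjusted p = 0.39 by edgeR), which was -1.31 without young replicate 1 and -1.36 without aged replicate 2. Col9a1, a chain of the cartilage collagen IX, had -2.39 (SE 0.90). This rested on few reads, with 18, 15 and 16 counts in young and 4, 4 and 0 counts in aged replicates 1 to 3. Col20a1, Col9a3 and Col19a1 had log2 fold changes of -0.42, 0.15 and 0.80.

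The 8 receptor genes for collagen VI and related collagens had a median log2 fold change of -0.12. By edgeR, 1 was higher and 1 lower at an unadjusted p below 0.05, against 10.4% of all tested genes in either direction. Itgb1, the shared beta1 integrin chain, was the most abundant of them and had a log2 fold change of 0.00 (SE 0.16), at a mean of 1461 CPM in both ages. Cspg4, a collagen VI binding proteoglycan of mural cells, had -0.40 (SE 0.21), Antxr1 had -0.29 (SE 0.20) and Antxr2, a cell surface receptor that takes up collagen VI, had 0.44 (SE 0.18). Itga10, a collagen-binding integrin chain, was at 37, 32.4 and 38.7 CPM in young and 15.3, 28.8 and 16.1 CPM in aged replicates 1 to 3. All its aged libraries lay under the young ones, which by CPM held for 8.78% of all tested genes. The log2 fold change of Itga10 was -0.84 (SE 0.26, adjusted p = 0.39 by edgeR). Without aged replicate 2 it was -1.20 with an adjusted p of 0.0494 by edgeR, and without young replicate 1 it was -0.81.

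Of the 14 matrix partners, 1 was higher and 2 were lower at an unadjusted p below 0.05 by edgeR, against 10.4% of all tested genes in either direction. Their median log2 fold change was -0.17, which turned to 0.05 without aged replicate 2. Dcn, which encodes decorin and binds collagens VI and XIV, was at 502, 549 and 839 CPM in young and at 2594, 548 and 2018 CPM in aged replicates 1 to 3. Aged replicate 2 was again at the young level, and the log2 fold change was 1.45 (SE 0.53, adjusted p = 0.436 by edgeR), or 1.87 with an adjusted p of 0.0488 without aged replicate 2, and 1.31 without young replicate 1. Tnc, encoding tenascin C, had 94.1, 187 and 261 CPM in young and 91.4, 107 and 98 CPM in aged replicates 1 to 3, and a log2 fold change of -0.87 (SE 0.34), or -1.17 without young replicate 1 and -0.93 without aged replicate 2. Young replicate 1 lay among the aged libraries, as it did for Col6a3. Bgn, the proteoglycan biglycan, and Col3a1, the main chain of collagen III, had log2 fold changes of 0.21 (SE 0.18) and -0.28 (SE 0.31).

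The 17 tested genes for collagen folding, modification and processing had a median log2 fold change of 0.05, which turned to -0.11 without young replicate 1. Against 10.4% of all tested genes in either direction, 1 gene of this list was higher at an unadjusted p below 0.05 by edgeR. The gene was Pcolce, which speeds the removal of procollagen ends, at 54.5, 74.2 and 93.5 CPM in young and 349, 78 and 247 CPM in aged replicates 1 to 3. Aged replicates 1 and 3 stood far above the young libraries and aged replicate 2 within them, as for Dcn and Col14a1. Its log2 fold change of 1.60 (SE 0.51) had an adjusted p of 0.39 by edgeR and of 0.0405 by DESeq2, and without aged replicate 2 it was 2.01 with an adjusted p of 0.0415 by edgeR, and without young replicate 1 it was 1.43. P4hb, Serpinh1 and Ppib, which act on procollagens in the endoplasmic reticulum, had log2 fold changes of 0.18 (SE 0.25), -0.10 (SE 0.31) and 0.48 (SE 0.25), and the lysyl hydroxylase gene Plod2 had -0.39 (SE 0.19).

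**Figure D5:**
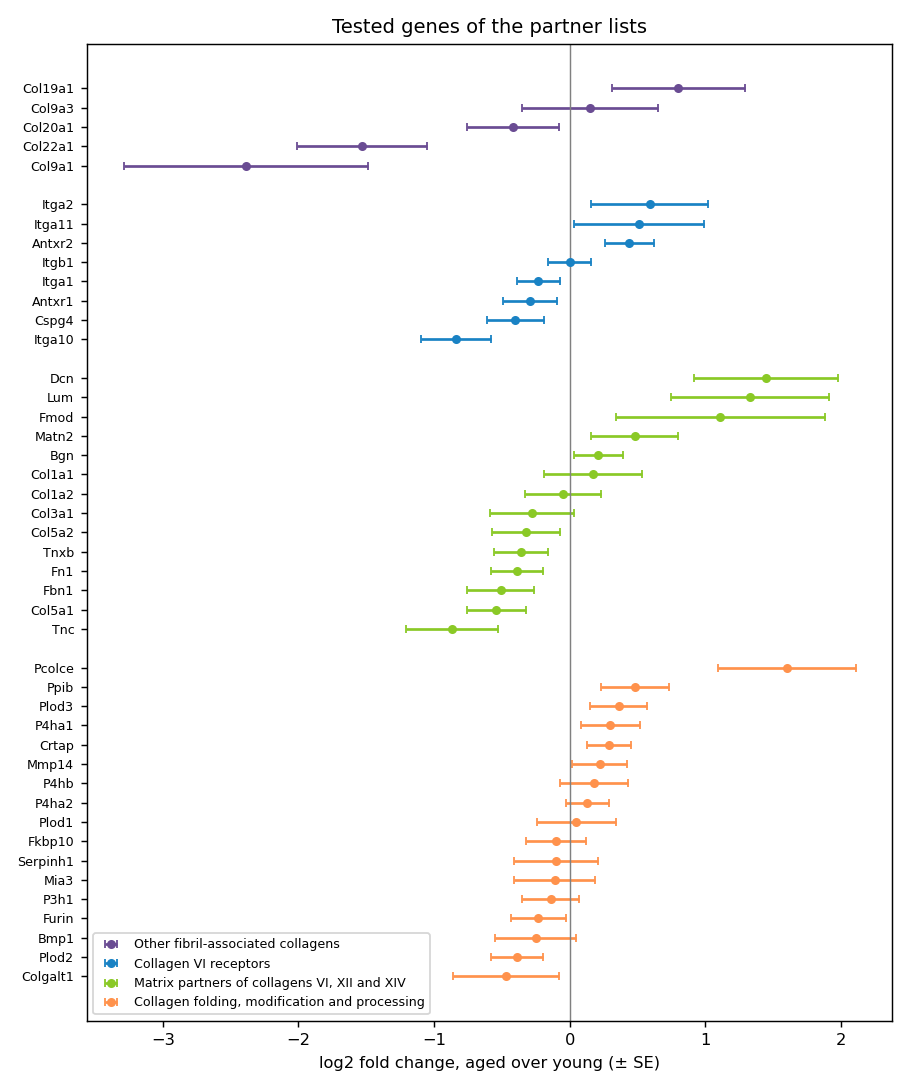
Fitted log2 fold change of aged over young aorta with its SE (horizontal bars) for the tested genes of the 4 lists, coloured by list and ordered by size within each. Dcn at 1.45 and Pcolce at 1.60 lie farthest to the right of 0, and Col22a1 at -1.53 and Col9a1 at -2.39 farthest to the left. Col9a1 had at most 18 counts in any library.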

How the data were processed

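Aorta RNA from 3 young and 3 aged mice was analysed. The authors deposited whole-number read counts per gene without normalization and a table of FPKM made from them. The build is mm10 per the submitters' processing notes. The aligner and counter are not given in the sources used here. Of 55335 identifiers, 55154 were found in GENCODE M21. Counts were analysed in R 4.3.3 using edgeR 4.0.16 (TMM, filterByExpr with a minimum count of 10 and total of 15, quasi-likelihood test, Benjamini-Hochberg adjustment over all genes tested, threshold 0.05). DESeq2 1.42.0 and limma 3.58.1 on log2(FPKM + 1) or log2(FPKM + 0.1) were alternatives, besides RLE factors, other filters, robust fitting, removal of 37 mitochondrial genes and 4 copies, the replicate number as a block and each library left out. The scripts were checked on simulated data. The genes and lists were chosen with earlier results of these data known. Named are all 9 collagens, of each of 4 lists the 3 highest by FPKM and the 2 with the smallest p, the 5 nearest genes, and Xist and Ddx3y. Markers entered as lists.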

Additional observations from a re-analysis of the deposited data

How the results depend on the processing

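None of the 7 tested collagen genes other than Col6a5 was called under any of the 15 alternatives. Col6a4 did not pass the main filter, and Col6a5 was given no test. DESeq2 called 338 genes in all and 1 of the partner lists, Pcolce. With each library left out, edgeR called 0 to 110 genes in all and 0 to 3 of the partner lists (Itga10, Dcn and Pcolce without aged replicate 2). Col6a1, Col6a2, Col6a3 and Col14a1 kept the sign of their log2 fold change in every alternative, whereas 3 genes did not. Col6a6 turned to -0.12 with limma on log2(FPKM + 1) and to -0.18 with a pseudocount of 0.1, and ran from -0.25 to 0.27 over the leave-one-out fits. Col12a1 turned to -0.07 with the pseudocount of 0.1 and ran from -0.41 to 0.98, and Col16a1 turned to -0.01 and ran from -0.09 to 0.68. On FPKM the median of all genes was itself -0.12 or -0.19 with the pseudocounts of 1 and 0.1. The median over the collagen genes ran from -0.41 to 0.24 when single libraries were left out. The causes of these turns were not tested. With a replicate block 0 genes were called. Deviations of equally numbered mice correlated at 0.0786, 0.117 and 0.0957, so the numbers were not taken to pair the mice. The common biological coefficient of variation between mice was 0.376, and Col6a4 and Col6a5 are limited by counting.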
